A study of Mus musculus with 40 samples.

Results

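The glutamate-glutamine cycle was followed through 9 genes, chosen by name for their place in the cycle: the vesicular glutamate transporters Slc17a7 and Slc17a6, the plasma membrane glutamate transporters Slc1a1, Slc1a2 and Slc1a3, the glutamine transporters Slc38a1 and Slc38a3, and the enzymes Glul and Glud1. All 9 were found among the 47643 genes counted in each table, and all 9 passed the filter on low counts in every comparison. The counts came from RNA sequencing of hippocampus and frontal cortex of wild-type germ-free Swiss Webster mice that were fed control diet and colonized with human stool. The mice were 6 to 8 weeks old and are described as female. The stool came from 10 children with refractory epilepsy before (pre-KD) and during (post-KD) treatment with the ketogenic diet (KD), a high-fat, low-carbohydrate diet used against seizures. There were 10 pre-KD and 10 post-KD libraries from each region, 40 in all, with 1 library of each region for each donor and condition, taken on day 4 after colonization and pooled from 6 mice. The mice that received 1 stool sample are called a cohort below, so that 20 cohorts each gave a hippocampal and a frontal cortex library. All mice were germ-free before the transfer and none ate the ketogenic diet, and no library came from mice without transferred stool. A library averages its mice, so the spread below is between cohorts and not between animals.

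Glutamate is the main excitatory transmitter of the forebrain. Neurons load it into synaptic vesicles with VGLUT1 (Slc17a7), used by most cortical and hippocampal principal cells, or VGLUT2 (Slc17a6), typical of thalamic and other subcortical neurons, and after release it is cleared mainly by the astrocyte transporters GLT-1 (Slc1a2) and GLAST (Slc1a3), with a smaller part taken by the neuronal EAAC1 (Slc1a1). Astrocytes turn glutamate into glutamine with glutamine synthetase (Glul) and release it through SNAT3 (Slc38a3), neurons can take it up through SNAT1 (Slc38a1) and convert it back to glutamate, and glutamate dehydrogenase (Glud1) links glutamate to the mitochondrial citric acid cycle.

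The libraries held 1140756 to 1947416 counts in the hippocampus and 1188447 to 2095352 in the frontal cortex, of which the single gene Gm42418 took 8.63 to 18% and 9.79 to 18%. Levels are given as CPM, counts scaled to 1000000 per library and adjusted by the trimmed mean of M-values (TMM). The regions carried their own markers: all 7 hippocampal marker genes were higher in the hippocampus and 5 of them passed the adjusted test, while 3 of 7 cortical markers passed it as lower there and 1 as higher. The frontal cortex libraries also held striatal markers (6 of 7 measured, summed level 500 to 1100 CPM against 33 to 295 CPM in the hippocampus), and the hippocampal libraries held choroid plexus markers (6 genes, 490 to 4320 CPM against 7.85 to 584 CPM in the frontal cortex). In 8 of the 40 libraries, all from the recipients of donors 9 and 10, the 4 Y-linked genes summed to 79 to 179 CPM, against at most 15.8 CPM in the other 32, although the mice are described as female. These 8 libraries were spread evenly over the 4 groups, 2 in each, and with them left out 0 of the 9 genes passed the adjusted or the unadjusted threshold in any of the 4 comparisons below, as with them included. Of all genes, 1765 of 16977 (post-KD in the hippocampus), 1599 of 17370 (post-KD in the frontal cortex), 1919 of 18887 (between regions) and 444 of 18887 (difference of changes) then had an unadjusted p under 0.05. In the same order, 1, 1, 468 and 2 of all genes had an adjusted p under 0.05 (edgeR).

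The genes spanned a wide range of levels, and the order of the leading genes was the same in both regions. On the scale of CPM per kilobase of annotated exon, which sets genes of different length side by side, Glul stood highest, at 247.6 ± 42.1 (SD, n = 20 libraries) in hippocampal libraries and 259.5 ± 38.6 in frontal cortex libraries. Slc1a2 followed at 127.3 ± 12 and 122.2 ± 14.6 CPM per kilobase, and Glul was above it in 20 of 20 libraries of each region. Slc17a7 came next, at 81.4 ± 23.4 and 71.9 ± 17.9, then Slc1a3, at 49.7 ± 9.45 and 44.9 ± 7.60, and Glud1, at 43.1 ± 11 and 38.5 ± 10.6 CPM per kilobase. Slc1a3 and Glud1 were not separated beyond their spread, with Slc1a3 the higher in 14 of 20 libraries of each region.

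On this scale a gap followed. Glud1 exceeded Slc38a1, at 8.58 ± 2.60 (hippocampus) and 8.84 ± 3.44 (frontal cortex) CPM per kilobase, in 20 of 20 libraries of each region, and Glul against Slc1a2 and Glud1 against Slc38a1 were the only neighbours in the order whose ranges did not overlap. The lowest genes, Slc1a1, Slc17a6 and Slc38a3, had means of 4.18 to 7.21 CPM per kilobase and could not be ordered: Slc17a6 was above Slc1a1 in 9 of 20 hippocampal libraries and below it in 12 of 20 frontal cortex libraries. The exon lengths behind this scale, 3323 bp for Glul to 17236 bp for Slc38a1, are those of the GENCODE M21 annotation with all transcripts of a gene merged, so a gene with long, little used exons is placed too low. The study's methods and its list of materials name different library kits, and with a kit that reads only 3' ends the division by length would not apply. Without that division the order changed: Slc1a2 led, at 1672 ± 157 CPM in the hippocampus and 1604 ± 192 CPM in the frontal cortex, and Glul followed, at 822.6 ± 139.7 and 862.3 ± 128.2 CPM. The gap between Glud1 and Slc38a1 was then also gone, with Glud1 at 181.5 ± 46.3 and 161.9 ± 44.6 CPM, Slc38a1 at 148.0 ± 44.8 and 152.3 ± 59.3 CPM, and overlapping ranges in both regions.

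**Figure D1:**
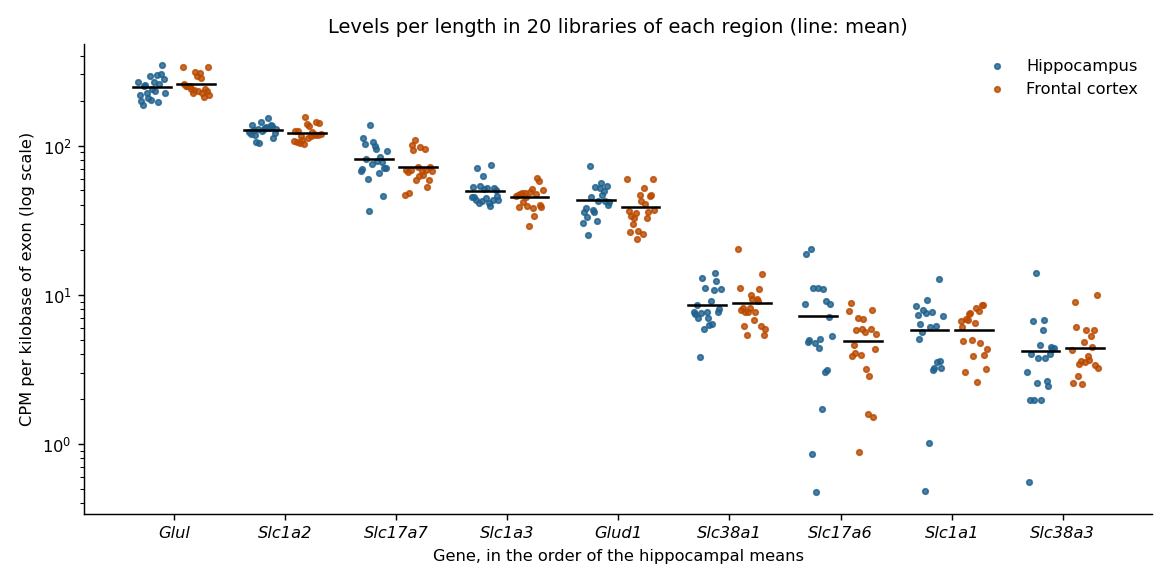
Level of each gene in CPM per kilobase of annotated exon (log axis), with 20 hippocampal and 20 frontal cortex libraries as points and the mean as a line. Glul and Slc1a2 lead in both regions, and Slc38a1, Slc17a6, Slc1a1 and Slc38a3 lie below a gap under Glud1 on this scale, which rests on the division by length; the frontal cortex library with 0 counts of Slc38a3 cannot be drawn on a log axis.

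The question the study put to these tissues was whether stool taken during the diet changes brain gene expression relative to stool taken before it. For the glutamate-glutamine cycle, the comparison in the hippocampus gave 0 of 9 genes with an unadjusted p under 0.05, where 10.1% of the 17529 genes tested had one, and 0 of 9 with an adjusted p under 0.05, where 0.0057% had one (edgeR's quasi-likelihood test, Benjamini-Hochberg adjustment over all genes). In the frontal cortex the numbers were again 0 of 9 unadjusted, against 9.68% of 17873 genes, and 0 of 9 adjusted, against 0.0056%. The median log2 fold change of the 9 genes, post-KD over pre-KD, was -0.06 for hippocampus and 0.01 for frontal cortex, beside -0.01 and 0.01 over all genes tested. DESeq2 also gave 0 of 9 in both regions at either threshold, where it called 599 hippocampal and 825 frontal cortex genes unadjusted. In every one of the 9 genes and both regions the ranges of the pre-KD and post-KD libraries overlapped. How many of all genes overlapped in this way was not counted, so it cannot be called particular to these 9 genes.

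**Figure D2:**
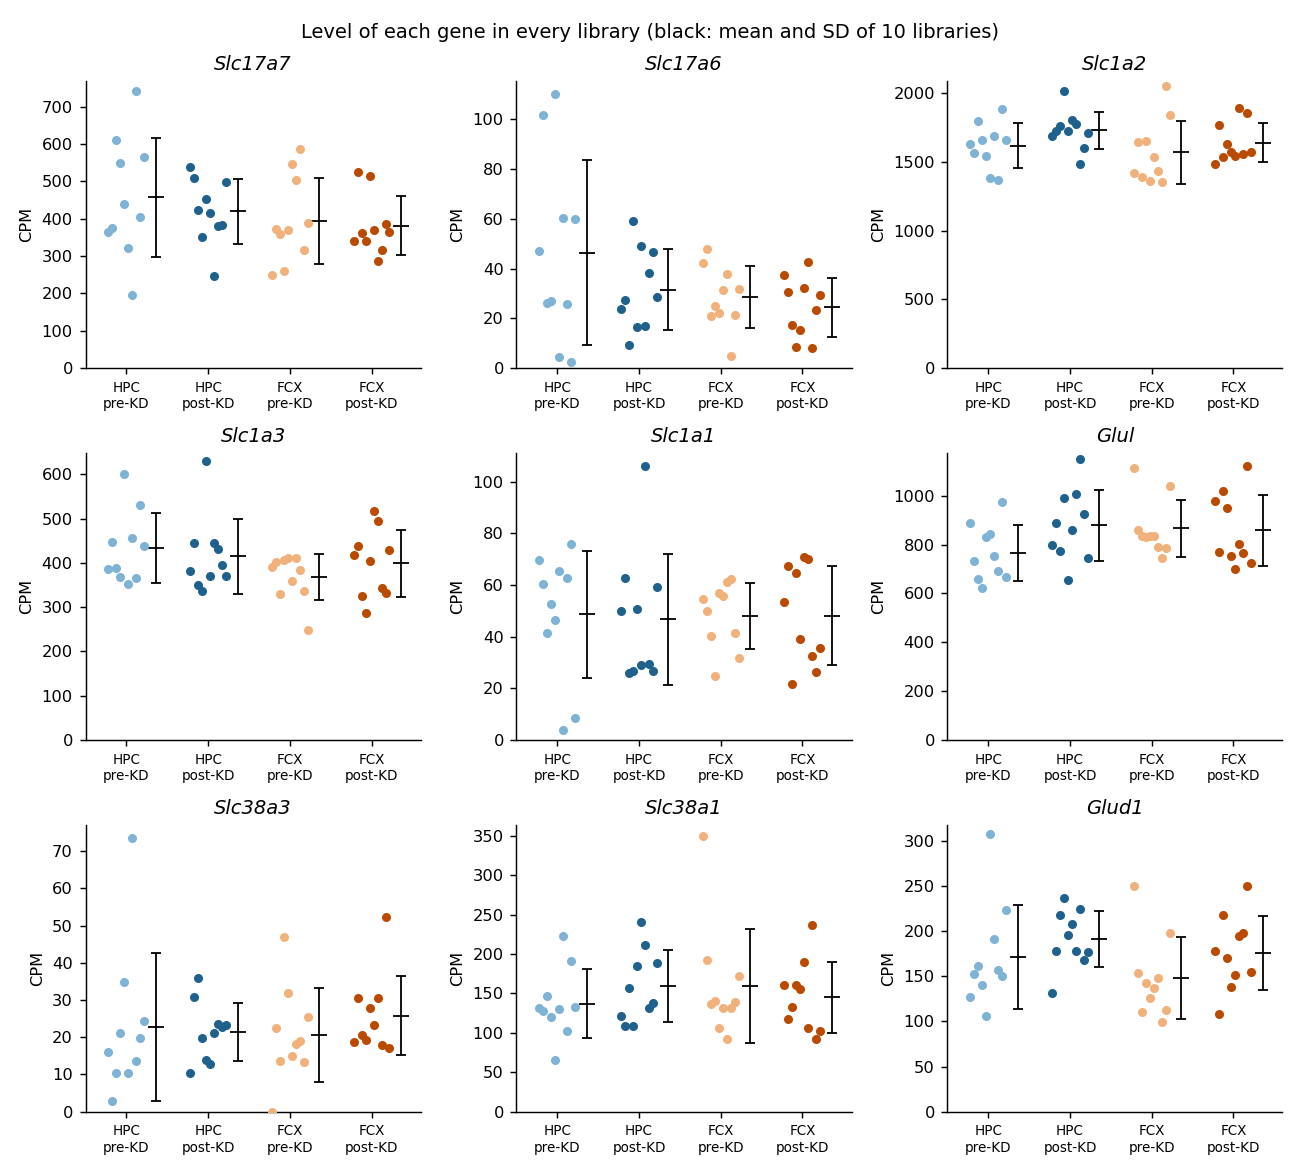
CPM of each gene in every library (linear axes from 0), with the 10 donors of a group side by side and the mean and SD in black; HPC is hippocampus and FCX frontal cortex. The 4 groups overlap in all 9 genes, and Slc17a6, Slc38a3 and Slc1a1 have the widest spread for their mean level in the hippocampus.

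The vesicular transporters came first in the cycle. Slc17a7 (chromosome 7, 45163949 to 45176142, plus strand, GRCm38) ranged from 196.9 to 741.7 CPM with a median of 423.4 in the hippocampal pre-KD libraries and from 247.0 to 538.6 with a median of 419.1 in the post-KD libraries. Of the pre-KD libraries 4 lay above the highest post-KD library and 1 below the lowest, so the pre-KD group was the wider. The log2 fold change was -0.13 ± 0.15 (SE, 95% interval -0.43 to 0.16, adjusted p = 1.0), and without donor 8, whose pre-KD library was the highest, it was -0.00611. The frontal cortex libraries ran from 249.8 to 586.1 CPM (median 370.5) pre-KD and from 285.7 to 525.1 (median 363.4) post-KD. The log2 fold change there was -0.0548 ± 0.125 (-0.30 to 0.19, adjusted p = 0.998). A donor's post-KD recipients had more Slc17a7 than its pre-KD recipients for 5 of 10 donors by their hippocampal and 6 of 10 by their frontal cortex libraries.

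Slc17a6 (chromosome 7, 51622006 to 51671119, plus strand) had the widest relative spread of the 9 genes over the 20 hippocampal libraries. In the hippocampal pre-KD libraries it ran from 2.55 CPM (4 counts) in the recipients of donor 9 to 109.9 CPM (173 counts) in those of donor 5, with a median of 36.9, and in the post-KD libraries from 9.17 to 59.1 CPM with a median of 27.8. Here too the pre-KD group was the wider, with 4 libraries above and 2 below the post-KD range. The means were 46.4 ± 37.0 CPM pre-KD and 31.5 ± 16.2 post-KD (SD, n = 10), a log2 fold change of -0.565 ± 0.407 that did not pass the test (-1.37 to 0.24, adjusted p = 0.883). The value moved with the libraries and the method: with 1 donor left out in turn it ran from -0.79 (without donor 9, unadjusted p = 0.0554 by edgeR) to -0.26 (without donor 5), and it was -0.75 without the Y-linked libraries, -0.33 with a donor block, -0.13 with limma-voom and -0.12 as a difference of mean log2 CPM. The interval given first runs from 0.386 to 1.18 times the pre-KD level, so the fitted change could not be told from no change with these libraries.

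Frontal cortex levels of Slc17a6 ran from 4.72 to 47.8 CPM (median 28.2) pre-KD and from 8.10 to 42.4 (median 26.3) post-KD, with a log2 fold change of -0.23 ± 0.35 (-0.92 to 0.47, adjusted p = 0.991). Post-KD recipients were higher for 4 of 10 donors in each region, and 5 donors were lower in both. Of the counts of both vesicular transporters, Slc17a6 made up 9.97 ± 8.67% (SD, n = 10) in the hippocampal pre-KD libraries, 7.17 ± 3.91% in the post-KD libraries, and 7.28 ± 3.69% and 6.17 ± 3.43% in the frontal cortex. Markers of thalamus and habenula, where Slc17a6 is abundant, summed to 143 to 380 CPM in the hippocampal and 190 to 368 CPM in the frontal cortex libraries (8 genes, with Gbx2 at 0 in both pre-KD groups and Slitrk6 at 0 in the hippocampal pre-KD group). The hippocampal library with most Slc17a6, at 109.9 CPM, had a marker sum of 143 CPM, and that with least, at 2.55 CPM, 217 CPM. In the frontal cortex the library with most, at 47.8 CPM, had 296 CPM, and that with least, at 4.72 CPM, 331 CPM. The part of these markers in the spread of Slc17a6 was not tested.

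Of the transporters that clear glutamate, Slc1a2 varied least between libraries and Slc1a1 most. Slc1a2 (chromosome 2, 102658659 to 102790784, plus strand), the main astrocyte transporter, ran from 1370 to 1882 CPM (median 1643) in the hippocampal pre-KD libraries and from 1482 to 2012 CPM (median 1724) in the post-KD libraries. Only 3 of these 20 libraries lay outside the range of the other condition, 2 pre-KD below and 1 post-KD above. The means were 1616 ± 163 and 1728 ± 137 CPM (SD, n = 10), 1.06 times higher post-KD with a 95% interval of 0.937 to 1.21 (adjusted p = 1.0). The frontal cortex libraries ran from 1353 to 2052 CPM (median 1484) pre-KD and from 1486 to 1895 (median 1570) post-KD, and 5 of the 10 pre-KD libraries lay below every post-KD library while 1 lay above. The fold there was 1.04 (0.936 to 1.17, adjusted p = 0.98). Post-KD recipients had more Slc1a2 for 8 of 10 donors in the hippocampus, 7 of 10 in the frontal cortex and 6 in both.

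Slc1a3 (chromosome 15, 8634124 to 8710764, minus strand), the second astrocyte transporter, ran from 353.1 to 600.2 CPM (median 413.5) pre-KD and from 335.6 to 629.8 (median 388.4) post-KD in the hippocampus. Its log2 fold change was -0.07 ± 0.14 (-0.34 to 0.20, adjusted p = 1.0). Its frontal cortex levels ran from 248.2 to 410.8 CPM (median 388.0) pre-KD and from 287.5 to 517.0 (median 411.5) post-KD, with 5 post-KD libraries above every pre-KD one and a log2 fold change of 0.11 ± 0.11 (-0.11 to 0.34, adjusted p = 0.951). Post-KD recipients were higher for 3 of 10 donors by their hippocampal and 5 of 10 by their frontal cortex libraries, and 6 donors moved in opposite directions in the regions.

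Slc1a1 (chromosome 19, 28835049 to 28913960, plus strand), the neuronal transporter, had fewer counts and a wider spread. It ran from 4.01 to 75.7 CPM (median 56.4) pre-KD and from 25.8 to 106.0 (median 39.8) post-KD in the hippocampus, where both 4.01 CPM, pre-KD, and 106.0 CPM, post-KD, came from the recipients of donor 7. Its log2 fold change was -0.06 ± 0.35 (-0.76 to 0.63, adjusted p = 1.0), and with donor 7 left out -0.42. The frontal cortex range was 24.9 to 62.3 CPM (median 52.3) and from 21.6 to 70.7 (median 46.2), with a log2 fold change of 0.01 ± 0.25 (-0.48 to 0.50, adjusted p = 1.0). The gene overlaps 4430402I18Rik on the opposite strand, and the sources used here do not say whether strand was used in counting, which also leaves reads of Slc1a2 and its antisense gene Gm13872, and of Glul and Teddm2 on the opposite strand, without a way to tell them apart.

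Glul (chromosome 1, 153899944 to 153909723, plus strand), the astrocyte enzyme that makes glutamine, had the smallest p of the 9 genes in the hippocampus. It ran from 621.8 to 974.2 CPM (median 742.8) in the pre-KD libraries and from 655.2 to 1149 (median 874.7) in the post-KD libraries, 3 of which exceeded every pre-KD library. The means were 766.0 ± 115 and 879.2 ± 145 CPM (SD, n = 10), 1.14 times higher post-KD with a 95% interval of 0.975 to 1.34 (unadjusted p = 0.0988, adjusted p = 0.719 by edgeR over all genes). Post-KD recipients were higher for 7 of 10 donors. Frontal cortex libraries ran from 744.7 to 1113 CPM (median 834.0) and from 701.2 to 1121 (median 785.7), and the fold was 0.988 (0.868 to 1.12, adjusted p = 0.998), with 5 of 10 donors higher. The difference between the regions in this change, a log2 value of 0.22 ± 0.13 (-0.04 to 0.48), did not pass its own test (adjusted p = 1.0).

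The glutamine carriers did not pass the test either. Slc38a1 (chromosome 15, 96571418 to 96642913, minus strand), on the neuronal side, ran from 66.2 to 223.0 CPM (median 130.6) pre-KD and from 108.4 to 240.0 (median 147.4) post-KD in the hippocampus, with a log2 fold change of 0.20 ± 0.20 (-0.18 to 0.59, adjusted p = 0.999). Its frontal cortex range was 92.3 to 349.8 CPM (median 138.0) and from 92.1 to 237.2 (median 143.8), with a log2 fold change of -0.13 ± 0.17 (-0.47 to 0.20, adjusted p = 0.98). The pre-KD library at 349.8 CPM, from the recipients of donor 1, stood apart, and without donor 1 the value was 0.05, on the other side of 0.

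Slc38a3 (chromosome 9, 107650634 to 107669530, minus strand), on the astrocyte side, was among the lowest genes of the set. It ran from 2.93 to 73.4 CPM (median 17.9) pre-KD and from 10.4 to 35.9 (median 21.9) post-KD in the hippocampus. The log2 fold change was -0.09 ± 0.53 (-1.14 to 0.96, adjusted p = 1.0), and without donor 7, whose pre-KD library held the 73.4 CPM, it was 0.33. Of the frontal cortex libraries, 1 pre-KD library had 0 counts, which allows up to 2.34 CPM (3 counts of 1188447, counting error only), and the highest reached 46.9 CPM (median of all 10 libraries 18.6), against 17 to 52.3 (median 21.9) post-KD. The log2 fold change there was 0.315 ± 0.390 (-0.46 to 1.09, adjusted p = 0.979), and it was 0.0860 without donor 9, whose post-KD library held the 52.3 CPM, and 0.57 without donor 4, whose pre-KD library held the 46.9 CPM.

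Glud1 (chromosome 14, 34310727 to 34345265, plus strand), which has a pseudogene copy that could share its reads, had the smallest p of the 9 genes in the frontal cortex. It ran from 99.1 to 249.8 CPM (median 139.7) pre-KD and from 108.2 to 250.1 (median 174.1) post-KD, and each condition had 1 library outside the range of the other. The means were 147.6 ± 45.4 and 176.1 ± 41.1 CPM (SD, n = 10), 1.19 times higher post-KD with a 95% interval of 0.967 to 1.47 (unadjusted p = 0.0991, adjusted p = 0.706 by edgeR). In the hippocampus the libraries ran from 106.2 to 307.5 CPM (median 154.3) and from 132.0 to 236.5 (median 186.6), and the fold was 1.11 (0.867 to 1.42, adjusted p = 1.0). Post-KD recipients were higher for 7 of 10 donors in each region and for 5 in both.

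**Figure D3:**
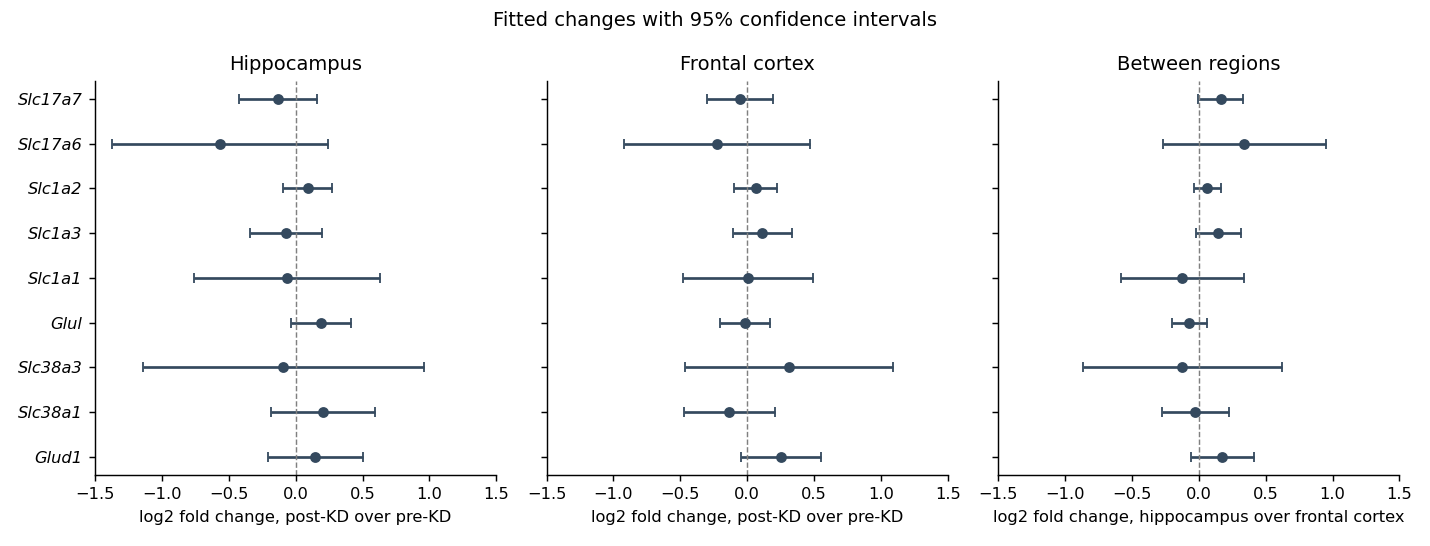
Fitted log2 fold changes with 95% confidence intervals of the 9 genes, post-KD over pre-KD in each region (left and middle) and hippocampus over frontal cortex (right). All 27 intervals include 0, and those of Slc17a6 and Slc38a3 are the widest.

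Whether the post-KD change differed between regions was tested in 1 fit over all 40 libraries with a term for each cohort. None of the 9 genes passed, with 0 at an unadjusted p under 0.05, where 2.22% of the 19422 genes tested had one, and 0 at an adjusted p, where 0.0154% had one (edgeR). The values ran from a log2 difference of -0.31 ± 0.76 (SE) for Slc38a3 to 0.33 ± 0.26 for Slc38a1.

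The 9 genes were also compared between the regions, with the hippocampus and frontal cortex of the same cohort set against each other. No gene passed: 0 of 9 had an unadjusted p under 0.05, where 10.9% of the 19422 genes had one, and 0 of 9 an adjusted p under 0.05, where 2.85% had one (edgeR, with cohort as a term). DESeq2 gave 3 of 9 unadjusted (Slc17a7, Slc1a2 and Slc1a3, beside 2660 of 19422 genes) and edgeR with RLE size factors 2 of 9 (Slc17a7 and Slc1a3, beside 2037), all higher in the hippocampus and none past the adjusted threshold. Of all genes, 0.87% were called higher and 1.98% lower in the hippocampus. Slc17a7 had the smallest p, at 438.7 ± 126.3 CPM among hippocampal and 387.8 ± 96.4 CPM among frontal cortex libraries (SD, n = 20), 1.12 times higher with an interval of 0.996 to 1.26 (unadjusted p = 0.0575, adjusted p = 0.49) and higher in the hippocampus in 14 of 20 cohorts. Slc1a3 followed at 424.5 ± 80.6 and 383.5 ± 64.9 CPM (fold 1.11, 0.984 to 1.24, adjusted p = 0.6).

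The other genes lay closer or had wider intervals. At the CPM levels given above, Slc1a2 had a fold of 1.04 (0.973 to 1.12) and Glul one of 0.951 (0.868 to 1.04). Glud1 had a fold of 1.13 (0.958 to 1.33) and Slc38a1 one of 0.982 (0.825 to 1.17). Slc1a1 was at 47.6 ± 24.4 and 48.0 ± 15.9, and Slc38a3 at 22.1 ± 14.7 and 23.2 ± 11.6 CPM. Slc17a6 had the highest fitted fold, 1.26, at 38.9 ± 28.9 against 26.4 ± 12 CPM, but its interval ran from 0.829 to 1.93 (adjusted p = 0.775). The median log2 difference of the 9 genes was 0.06, beside -0.17 over all genes tested with the cohort term and -0.02 without it. In tissue, fewer cells of a type and less RNA per cell cannot be told apart. The summed level of 12 other astrocyte markers had medians of 1390 to 1460 CPM in the 4 groups. Singly they differed in direction, with 8 higher and 4 lower in the hippocampus. Of the 12, 1 passed the adjusted threshold, S100b as lower there (edgeR, adjusted p = 0.00316), beside 2.85% of all genes.

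The genes differed in how widely their levels spread between libraries. Slc1a2 had a coefficient of variation (CV) of 9.39% over the 20 hippocampal libraries, against 1.98% from counting error alone, and 12% in the frontal cortex. Glul, at 17% and 14.9%, and Slc1a3, at 19% and 16.9%, came next, then, in the order of their hippocampal values, Glud1 (25.5% and 27.6%), Slc17a7 (28.8% and 24.9%) and Slc38a1 (30.3% and 38.9%). Slc1a1 (51.2% and 33.1%), Slc38a3 (66.8% and 50.2%) and Slc17a6 (74.1% and 45.4%) had the highest values in the hippocampus, while in the frontal cortex Slc38a3, Slc17a6 and Slc38a1 did. For Slc17a6 counting error gave 13% in the hippocampus, and for Slc38a3 17.3%. Genes with fewer counts broadly had the wider spread, with medians of 2500.5 counts per hippocampal library for Slc1a2 and 34 for Slc38a3.

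**Figure D4:**
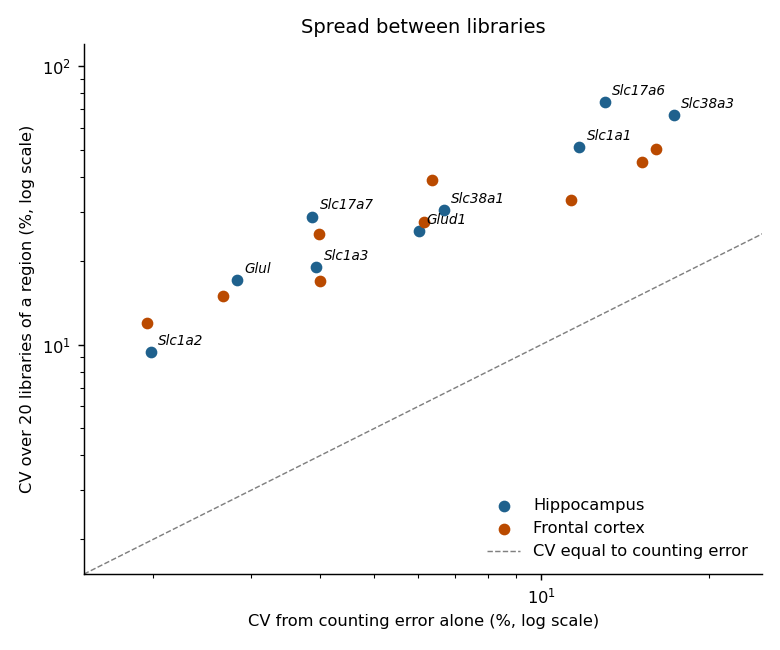
CV of each gene over the 20 libraries of a region against the CV that counting error alone would give (both in percent, log axes); gene names stand at the hippocampal points. Every point lies above the dashed line of equality, from Slc1a2 at 9.39% to Slc17a6 at 74.1% in the hippocampus.

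No gene's level in the hippocampus of a cohort was related, past the test, to its level in the frontal cortex. Over the 20 cohorts, after each condition's mean was subtracted, Pearson's r between the regions ran from -0.05 for Slc38a1 to 0.33 for Slc1a2, with a median of 0.0854 and 8 of 9 values positive. In Slc1a2, the highest, the permutation p was 0.196 (adjusted p = 0.918 over the 9 relations), Spearman's rho was 0.25, and r was 0.25 without the 2 cohorts farthest from the median. None of the 9 relations had an unadjusted permutation p under 0.05.

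Within a region, 36 pairs of the 9 genes were compared over its 20 libraries, 72 relations in both regions. Only Glul and Glud1 in the frontal cortex passed the adjusted threshold, with Pearson's r = 0.78 (permutation p = 9e-05, adjusted p = 0.00648, n = 20) and Spearman's rho = 0.68, whose adjusted permutation p of 0.05 was not under the threshold. The value was 0.92 among the 10 pre-KD and 0.68 among the 10 post-KD libraries, and 0.64 without the 2 libraries farthest from the median of Glul, 1 pre-KD and 1 post-KD. When total counts and the share of Gm42418 were taken out of both genes as covariates, r was 0.56 and no longer passed (permutation p = 0.00762, adjusted p = 0.206). In the hippocampus the same pair had r = 0.05 (adjusted permutation p = 0.945), and with these covariates -0.42. Whether the 2 regions differed in this relation was not tested.

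**Figure D5:**
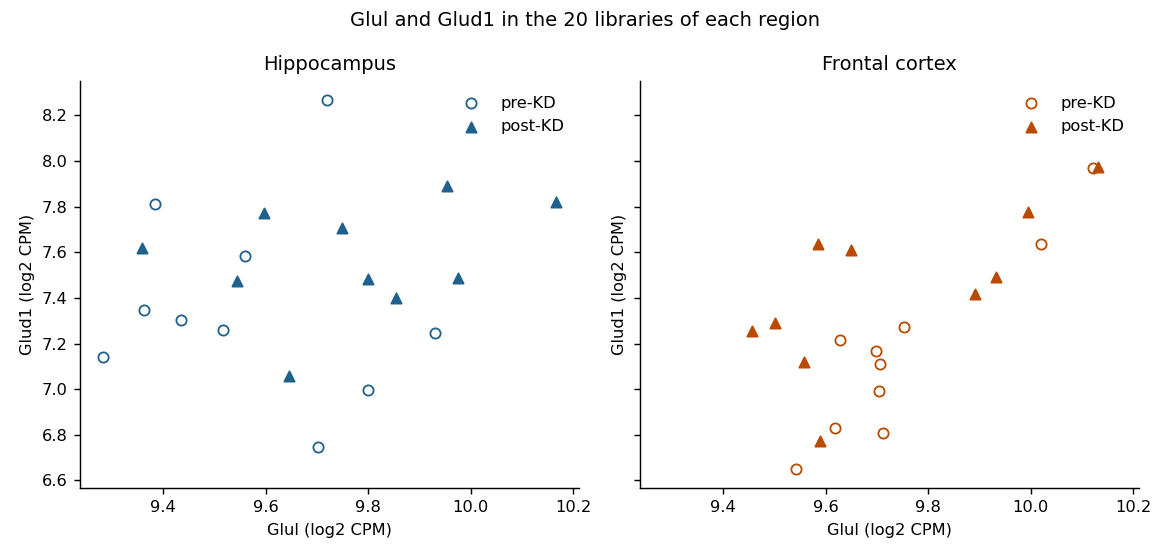
Glud1 against Glul in log2 CPM, with each of the 20 libraries of a region as a point (open circles pre-KD, filled triangles post-KD). In the frontal cortex the libraries with most Glul also have most Glud1 (r = 0.78 after subtracting condition means), and in the hippocampus no such order is seen (r = 0.05).

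Other pairs fell short of the threshold. Including Glul with Glud1, 5 of 36 pairs in the frontal cortex and 1 of 36 in the hippocampus had an unadjusted permutation p under 0.05. The most negative value was that of the glutamine carriers Slc38a1 and Slc38a3 in the frontal cortex, r = -0.66 (permutation p = 0.0121, adjusted p = 0.345) and rho = -0.405. It rested on a pair of libraries, with r = -0.225 without the 2 libraries farthest from the median of Slc38a1. These were the post-KD library of donor 8 and the pre-KD library of donor 1. The latter had 0 counts of Slc38a3, so its log2 CPM of that gene was set by the prior count. Among Slc1a2, Slc1a3, Glul and Slc38a3, the genes placed in astrocytes above, no pair passed the adjusted threshold, and Slc1a3 and Glul in the frontal cortex had r = -0.56 (permutation p = 0.0184, adjusted p = 0.345). Slc17a7 and Glul in the hippocampus had r = -0.51 and rho = -0.69 (adjusted permutation p = 0.345 and 0.05). In the hippocampus 16 of 36 relations were positive and in the frontal cortex 16 of 36.

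For each gene the transcript most alike over all 40 libraries was found among 7671 genes averaging at least 20 counts per library in each region, as a description with no test, since the libraries share depth and composition. Slc17a7 was most like Ncdn, with r = 0.725, barely ahead of Mfge8 at 0.723, and Slc1a2 most like Btbd10, with r = 0.61. Slc1a3 was most like Fbxo21 (r = 0.58), Slc1a1 most like Gpat4 (r = 0.67), Slc17a6 most like Nceh1 (r = 0.64) and Glud1 most like Eif5a (r = 0.64). Glul was most like Vps29, a subunit of the retromer sorting complex, with r = 0.71 over all libraries and 0.72 and 0.71 within hippocampus and frontal cortex. Slc38a1 was most like Lgmn, a lysosomal protease (r = 0.63), and Slc38a3 most like Smu1 (r = 0.67). For Slc17a6 the likeness was 0.82 within hippocampus and 0.19 within frontal cortex, and for Slc1a1 0.75 and 0.26.

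A further 25 genes of glutamate and glutamine handling were read beside these 9: aminotransferases, mitochondrial carriers, other transporters, proline enzymes and others. In the hippocampus 0 of the 24 tested passed the adjusted or the unadjusted threshold, post-KD against pre-KD, where 0.0057% and 10.1% of all genes did, and their median log2 fold change was 0.30, beside -0.01 over all genes. The smallest p values belonged to Slc25a12, a mitochondrial aspartate-glutamate carrier (105.3 ± 27.3 CPM pre-KD and 131.4 ± 40.1 post-KD, adjusted p = 0.825), Prodh, proline dehydrogenase (12 ± 10.7 and 4.35 ± 7.54 CPM, adjusted p = 0.845), and Slc3a2 (103.2 ± 46.2 and 128.9 ± 39.6 CPM, adjusted p = 0.849).

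In the frontal cortex 0 of 25 passed the adjusted threshold, where 0.0056% of all genes did, and 1, Slc1a7, the unadjusted one as lower post-KD, where 9.68% of all genes passed it in either direction. Slc1a7, a glutamate transporter best known from retina, had 11 counts in all, from 1 pre-KD library, and 0 in the other 39 libraries, so its fitted fold is not given. Slc17a8, which encodes VGLUT3, was at 2.43 ± 3.39 and 0.343 ± 0.582 CPM (adjusted p = 0.557), and Slc1a6, a transporter of cerebellar Purkinje cells, at 4.18 ± 4.02 and 11.2 ± 10.5 CPM (adjusted p = 0.625).

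Between the regions 1 of the 25 genes passed the adjusted threshold, beside 2.85% of all genes. Slc3a2, the heavy chain shared by several amino acid exchangers including the cystine-glutamate exchanger, ran from 51.4 to 205.9 CPM (median 116.9) in the hippocampus and from 45.5 to 110.2 (median 73.6) in the frontal cortex, and was higher in the hippocampus in 18 of 20 cohorts. The log2 difference was 0.64 ± 0.16 (SE, 95% interval 0.33 to 0.95, adjusted p = 0.00318 by edgeR), and over the alternatives run its adjusted p stayed between 1.2e-05 and 0.0238. At an unadjusted p under 0.05, which 10.9% of all genes had, 6 of the 25 passed: Slc3a2, Slc25a22, Aldh4a1 and Slc7a11 as higher and Got2 and Slc38a7 as lower in the hippocampus, the last 5 named after their values were seen and none of them past the adjusted threshold (edgeR, adjusted p from 0.254 to 0.448). The hippocampal libraries also carried more choroid plexus marker RNA, as given above. The hippocampal library with least Slc3a2, at 51.4 CPM, had a marker sum of 1940 CPM, and that with most, at 205.9 CPM, 1520 CPM. In the frontal cortex the library with least, at 45.5 CPM, had 584 CPM, and that with most, at 110.2 CPM, 90.7 CPM. The part of choroid plexus RNA in the difference of Slc3a2 between regions was not tested.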

How the data were processed

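Total RNA was made into libraries with a TruSeq kit per the labels; the authors aligned reads to mm10 with STAR 2.5.2a and deposited raw counts per Ensembl gene from HTSeq 0.6.0, in 1 table per region. Fragment and strand settings of the counting are not given in the sources used here. Names, coordinates and exon lengths come from GENCODE M21 (GRCm38), which held 47224 of 47643 identifiers; 419 had no match. Testing used edgeR 4.0.16 on genes whose counts in the fitted libraries summed to at least 10 (R 4.3.3, TMM, quasi-likelihood, Benjamini-Hochberg over all genes tested). CPM used TMM over all 40 libraries, and log2 CPM a prior count of 2. Post-KD was compared with pre-KD within each region without a donor term; the region fits held a term for each of 20 cohorts. Correlations used two-sided permutation tests with 100000 resamples within condition. DESeq2 1.42.0, limma 3.58.1 (voom), other filters and scalings, the donor block and leaving out each donor were alternatives. The fits were run on simulated data in which 100 genes were changed by a log2 of 0.5 and 100 by 1. At an adjusted p under 0.05 (edgeR) the hippocampal post-KD fit recovered 1 and 20 of them, and the frontal cortex fit 7 and 47. Recovered were 11 and 47 between regions, and 0 and 2 for the difference of changes. Of unchanged genes, 7.34% (hippocampus), 6.75% (frontal cortex), 3.18% (between regions) and 3.09% (difference of changes) had an unadjusted p under 0.05. No 2 libraries were identical among 780 pairs.

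The 9 genes, the 25 further genes and the marker lists were chosen with earlier results of these data known. Named by rule are all 9 genes, the 3 further genes with the smallest p in each post-KD comparison, up to 3 past the adjusted threshold between regions, and the gene most alike to each of the 9. Outside this rule, the further genes past only the unadjusted threshold between regions, and Mfge8, were named after their values were seen. Marker genes are named where their list is described. Libraries with the same number share their donor. Deviations from the group means did not correlate between a donor's pre-KD and post-KD libraries (r of -0.03 to 0.03 in the hippocampus and -0.05 to 0.04 in the frontal cortex, 0 of 10 pairs over 0.1 in each). Between the regions of a cohort r ran from -0.03 to 0.21 pre-KD, with 1 of 10 pairs over 0.1. Post-KD it ran from -0.01 to 0.05, with 0 of 10. At 1140756 to 2095352 counts a library, genes under about 30 counts carried counting errors over 17%. Intervals cover the spread between pooled libraries, which is partly technical.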

Additional observations from a re-analysis of the deposited data

Results flagged for a closer look

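In 5 of the 36 sets of 10 libraries (9 genes in 4 groups), 1 library lay far from the rest by Dixon's ratio, the gap to the nearest library over the whole range in log2 CPM, above its 95% critical value; chance gives about 1 in 20 sets. Of these 5, 3 concern the genes with the fewest counts. Slc17a6 in the frontal cortex pre-KD library of donor 8 was lowest (ratio 0.622), at 4.72 CPM from 5 counts, with the nearest library at 20.9 CPM. Slc38a3 in the frontal cortex pre-KD library of donor 1 was at 0 counts (ratio 0.673), with the nearest at 13.3 CPM, and Slc38a3 in the frontal cortex post-KD library of donor 9 was highest (ratio 0.481), at 52.3 CPM with the nearest at 30.6 CPM. Slc1a3 was set apart by many more counts. In the hippocampal post-KD library of donor 5 it was highest (ratio 0.552), at 629.8 CPM with the nearest at 445.0 CPM, and the pre-KD library of that donor was also the highest of its group, at 600.2 CPM. In the frontal cortex pre-KD library of donor 10 Slc1a3 was lowest (ratio 0.571), at 248.2 CPM with the nearest at 330.9 CPM.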

How the results depend on the processing

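Over 666 adjusted p values of the 9 genes in the alternatives, 0 were under 0.05 and the lowest was 0.11. At an unadjusted p under 0.05, limma-voom gave 1 gene in the hippocampus (Glul, p = 0.00498), beside 962 of all 17529 genes. The region comparison gave 3 with DESeq2 (p = 0.0499, 0.0311 and 0.0201 for Slc17a7, Slc1a2 and Slc1a3) and 2 with RLE size factors (p = 0.0208 and 0.0355 for Slc17a7 and Slc1a3), as given above with the counts over all genes. Without 1 donor in turn the unadjusted counts ran from 0 to 1 in the hippocampus, 0 to 1 in the frontal cortex, 0 to 2 between regions and 0 to 1 for the difference of changes, beside 1636 to 1755, 1570 to 1718, 1859 to 2145 and 386 to 471 of all genes, and the adjusted counts stayed at 0 to 0; the genes were Glul in the hippocampus (without donor 5) and for the difference of changes (without 9), Glud1 in the frontal cortex (without 1, 2 or 10) and between regions (without 1), and, between regions, Slc17a7 (without 2, 5, 6 or 7) and Slc1a3 (without 6). The cause was not tested. Of all genes, 0 to 1 (post-KD, hippocampus) and 1 (post-KD, frontal cortex) passed the adjusted threshold with 1 donor left out (edgeR). For the difference of changes 2 to 4 of all genes passed it, and between regions 447 to 555. Outside the region comparison hardly any gene passed, so a count of 0 there is not particular to these 9 genes. The pair count fell from 1 to 0 with Spearman's rho and with depth and Gm42418 as covariates. Leaving out the Y-linked libraries and those covariates were chosen after seeing the data. Over all genes, the adjusted calls rose from 1 to 1291 in the hippocampus with no filter on low counts, from 554 to 1935 between regions with no replicate block and to 1033 there with DESeq2, from 3 to 348 for the difference of changes with no replicate block, and from 1 to 12 in the frontal cortex under DESeq2 and a donor replicate block; the replicate block changed no call of the 9 genes.

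These log2 values lay on the other side of 0 from those reported, none of them called. Slc38a3 post-KD in the hippocampus was 0.18 (replicate block, edgeR), 0.20 (replicate block, DESeq2), 0.51 (voom) and 0.21 (mean log2 CPM). Slc1a1 was 0.15 in the hippocampus (mean log2 CPM) and -0.0578, -0.0496, -0.0428 and -0.0533 in the frontal cortex (replicate block in edgeR and DESeq2, voom, mean log2 CPM). Slc38a1 was 0.0372 in the frontal cortex (voom) and 0.00809 and 0.008 between regions (DESeq2, RLE). For the difference of changes, Slc1a1 was -0.0669 with no replicate block and -0.0972 without the Y-linked libraries, Slc1a2 -0.0043 and Glud1 0.0213 without them. Without 1 donor in turn, ranges crossing 0 were -0.42 to 0.0943 (Slc1a1) and -0.28 to 0.33 (Slc38a3) in the hippocampus, -0.13 to 0.0444 (Slc17a7), -0.13 to 0.097 (Slc1a1), -0.0825 to 0.0383 (Glul) and -0.27 to 0.0521 (Slc38a1) in the frontal cortex, -0.16 to 0.0709 (Slc38a1) between regions, and for the difference of changes -0.19 to 0.0531 (Slc17a7), -0.42 to 0.22 (Slc17a6), -0.28 to 0.37 (Slc1a1), -0.0227 to 0.057 (Slc1a2), -0.63 to 0.0682 (Slc38a3) and -0.17 to 0.0195 (Glud1).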
